A study of Mus musculus with 6 samples.

Results

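The heterogeneous nuclear ribonucleoproteins (hnRNPs) H and F form a small family of RNA-binding proteins, described here in STRA8+ cells of the mouse testis through the messenger RNA of Hnrnph1, Hnrnph2, Hnrnph3, Hnrnpf and Grsf1. The members were taken by gene symbol from the deposited table of gene levels, which holds 54532 genes, and all 5 were found. Stra8 is induced by retinoic acid as germ cells enter meiosis. The 3 control libraries came from mice whose genotype label is Cre, and the 3 knockout libraries from mice labelled as conditional knockout. The labels name neither the deleted gene nor the promoter that drives Cre, and they give no strain and no age. BCAS2 and hnRNPH1 stand in the study's title as regulators of splicing during male meiosis, and the knockout is compared with the control for the level of each member.

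Proteins of this family carry quasi-RNA recognition motifs, folds that grip runs of guanines in RNA. Hnrnph1, Hnrnph2, Hnrnph3 and Hnrnpf encode nuclear proteins that bind such runs in and around exons, where they promote or repress splicing and can act on polyadenylation. Grsf1 is the relative that works in mitochondria, in the RNA granules where transcripts of the mitochondrial genome are processed. Hnrnph1 and Hnrnph2 encode the most similar pair of proteins, and Hnrnph2 lies on the X chromosome, which is silenced in pachytene spermatocytes.

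The coding sequences show how close the members are, which bears on whether reads of one can be taken for another. In the coding sequences of the GENCODE M21 reference transcripts, Hnrnph1 and Hnrnph2 were identical at 84.3% of 1347 aligned bases. Hnrnph1 and Hnrnpf were identical at 77.05% of aligned bases, Hnrnph1 and Hnrnph3 at 65.75%, and Hnrnph1 and Grsf1 at 57.2%. The window of 60 bases in which the 5 coding sequences were most alike, with 38 bases the same in all, is given below 5′ to 3′ on the coding strand, with capitals at bases that differ from Hnrnph1.
Hnrnph1: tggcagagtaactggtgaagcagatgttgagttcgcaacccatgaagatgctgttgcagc
Hnrnph2: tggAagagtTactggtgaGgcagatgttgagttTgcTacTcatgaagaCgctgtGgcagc
Hnrnph3: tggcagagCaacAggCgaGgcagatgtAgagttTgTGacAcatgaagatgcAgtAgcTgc
Hnrnpf: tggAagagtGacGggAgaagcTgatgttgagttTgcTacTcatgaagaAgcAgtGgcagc
Grsf1: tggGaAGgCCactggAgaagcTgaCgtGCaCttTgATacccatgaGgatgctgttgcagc
The windows lie in coding exons at chr11:50383229-50383288 on the plus strand for Hnrnph1, chrX:134605879-134605938 plus for Hnrnph2, chr10:63016433-63016492 minus for Hnrnph3, chr6:117924728-117924787 plus for Hnrnpf and chr5:88663146-88663205 minus for Grsf1, all in mm10. Within these windows Hnrnph2 differed from Hnrnph1 at 8 bases, Hnrnpf at 11, Hnrnph3 at 12 and Grsf1 at 15. The longest run that the coding sequences of Hnrnph1 and Hnrnph2 share without a difference lies shortly downstream of that window and has 34 bases; in Hnrnph1 it crosses an exon junction between 50383294 and 50383692.
Hnrnph1 and Hnrnph2: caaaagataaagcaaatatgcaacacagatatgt
Hnrnph1 and Hnrnph3 share a longer run, of 36 bases, though their coding sequences are less alike. No stretch of 50 bases in the reference transcript of any member occurred in a transcript of another (0% of windows). Of stretches of 30 bases 0.906% did in Hnrnph1, 0.379% in Hnrnph2, 0.595% in Hnrnph3 and 0% in Hnrnpf and Grsf1. The read length is not given in the sources used here. The table also lists a processed pseudogene described as a copy of Hnrnpf (AC164970.1), which was at 0 in every library.

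The gene models differ as well. In the reference transcripts the coding sequence was split over 12 exons in Hnrnph1 and over 9 each in Hnrnph3 and Grsf1, whereas it lay in 1 exon in Hnrnph2 and in 1 exon in Hnrnpf. Hnrnph1 (ENSMUSG00000007850) spans 50376990 to 50386528 on chromosome 11 and Hnrnph2 (ENSMUSG00000045427) spans 134601179 to 134607060 on the X chromosome. Hnrnph3 (ENSMUSG00000020069) spans 63014664 to 63024217 on chromosome 10, Hnrnpf (ENSMUSG00000042079) spans 117900324 to 117925622 on chromosome 6 and Grsf1 (ENSMUSG00000044221) spans 88659448 to 88676171 on chromosome 5. All are annotated as protein-coding, and the deposited coordinates equalled those of GENCODE M21 for each.

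The 6 libraries held 14532453 to 16963019 reads, and a member had between 232 reads (Hnrnph2 in a control) and 18419 reads (Hnrnph1 in a knockout library). Levels are deposited FPKM, fragments per 1000000 and per kilobase of gene, and their library divisor was 0.691 to 0.774 times the library's reads in control libraries and 1.37 to 1.42 times in the knockout. Of 16791 genes whose mean reached 1 FPKM, limma called 86.6% at an adjusted p of 0.05, 36.2% higher and 50.4% lower, with a median log2 fold change of -0.41. That balance turned with the scaling: 54.2% were called higher and 36.2% lower when each library was brought to a sum of 1000000 FPKM, and 50.4% higher and 38.8% lower by limma voom on the reads. The other title gene, Bcas2, had 19.8, 19.3 and 20.5 FPKM in control libraries against 4.78, 4.38 and 5.40 FPKM in the knockout. Markers of cell types moved with the groups: the summed level of 12 spermatid markers was 18870.4 to 22004.6 FPKM in control libraries against 6.98 to 10.3 FPKM in the knockout, although both groups are labelled STRA8+. The sum of 10 pachytene markers was 5023.1 to 6037.0 FPKM in control libraries against 57.4 to 79.7 FPKM in the knockout, and that of 14 Sertoli cell markers was 235.8 to 450.7 and 886.9 to 1449.3 FPKM. All 12 spermatid and all 10 pachytene markers were called lower and all 14 Sertoli markers higher. The sum of 11 markers of undifferentiated spermatogonia was 52.5 to 74.0 FPKM and then 262.4 to 339.3 FPKM, with Nanos2 at 0 in all controls. Uchl1 alone made up most of that sum, at 29.7 to 44.6 and 210.8 to 277.2 FPKM. Of 9 tested, 6 were called higher and 2 lower, the latter being Id4 and Gfra1. Of 8 markers of differentiating spermatogonia, 7 were called higher and 1 lower, with sums of 403.8 to 500.0 and 388.6 to 431.1 FPKM. Dmrtb1, the 1 that was lower, made up most of the control sum, at 330.2 to 436.5 FPKM against 22.9 to 28.5 FPKM in the knockout. The sum of 8 macrophage markers was 36.2 to 56.5 and 60.6 to 179.9 FPKM. Each of these markers was highest in knockout replicate 1, such as C1qb at 52.4 FPKM against 16.85 and 21.7 FPKM in knockout replicates 2 and 3. Of the 8 markers 4 were called higher. Leydig cell markers went the other way, with sums of 90.9 to 152.7 and 18.4 to 71.7 FPKM, 1 called higher and 3 lower. The sum of 12 early meiotic markers overlapped between groups, at 773.8 to 872.1 and 649.8 to 887.4 FPKM, but 5 of them were called higher and 5 lower. Dmc1 went from 7.53 to 12.9 FPKM up to 46.7 to 53.0 FPKM, and Spo11 from 24.8 to 28.0 FPKM down to 5.70 to 6.66 FPKM. Stra8 itself had 11.5 to 22.6 FPKM in control libraries against 125.4 to 136.8 FPKM in the knockout. The labels' extraction protocol speaks of retinas, and 8 photoreceptor markers summed to 1.90 to 2.05 FPKM in control libraries against 0.631 to 0.913 FPKM in the knockout, with Crx and Opn1sw at 0. The part of these shifts in the results on the family was not tested, and in bulk samples fewer cells of a type and less RNA per cell cannot be told apart.

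Hnrnph1 rose by a factor of 2.20 in the deposited values and had the highest level of the members in the knockout. Its 3 control libraries had 61.2, 67.5 and 62.7 FPKM, and its 3 knockout libraries had 128.8, 155.8 and 135.7 FPKM. The groups did not overlap, and the knockout libraries were spread more widely, with replicate 2 the highest. The means were 63.8 ± 3.26 FPKM in control libraries against 140.1 ± 14.04 FPKM in the knockout (SD, n = 3 each), a fold of 2.20. The log2 fold change, computed on log2(FPKM + 0.5), where changes of low genes come out too small, was 1.13 ± 0.0987 (SE) with a limma adjusted p of 1.3e-05.

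Hnrnph2, the X-linked relative of Hnrnph1, was the least abundant member in every library and also rose. It had 5.29, 5.89 and 5.74 FPKM in control libraries against 14.4, 13.1 and 15.1 FPKM in the knockout, again without overlap. The fold was 2.52 and the log2 fold change 1.26 ± 0.102 (SE), with a limma adjusted p of 8.0e-06. It stayed well below Hnrnph1: the ratio of Hnrnph1 to Hnrnph2 was 11.6, 11.5 and 10.9 in control libraries and 8.94, 11.9 and 8.999 in the knockout, and these ranges overlapped.

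Hnrnpf, which encodes the relative that binds the same guanine runs, moved the other way in the deposited values. The controls had 95.4, 90.9 and 106.2 FPKM and the knockout libraries 64.5, 55.9 and 55.6 FPKM. Every control was above every knockout library. The means were 97.5 ± 7.85 and 58.7 ± 5.02 FPKM (SD, n = 3 each), and the log2 fold change was -0.73 ± 0.1004 (SE) with a limma adjusted p of 2.0e-04. Hnrnph3, which encodes a shorter protein of the family, was also lower in the deposited values. Its controls had 23.9, 23.4 and 25.4 FPKM and its knockout libraries 17.1, 20.1 and 16.2 FPKM, with a log2 fold change of -0.44 ± 0.105 (SE) and a limma adjusted p of 0.0045. The change of Hnrnph3 was close to the median of all genes tested, at -0.025 relative to it, while that of Hnrnpf was -0.315 relative to it.

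Grsf1, the mitochondrial member, did not pass the test. It had 43.8, 42.3 and 44.4 FPKM in control libraries against 44.1, 46.0 and 46.7 FPKM in the knockout. The ranges overlapped, the log2 fold change was 0.07 ± 0.0768 (SE) and the limma adjusted p was 0.43. So 4 of the 5 members were called, 2 higher and 2 lower, against the 86.6% of all genes called. The groups of those 4 did not overlap, as held for 88.0% of all genes tested.

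**Figure D1:**
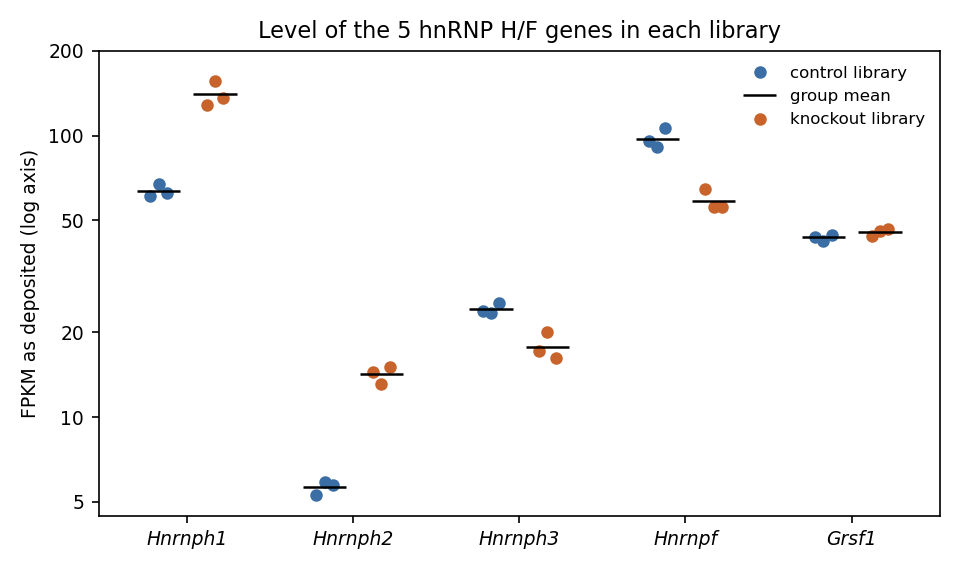
FPKM of each member (log axis) in the 3 control and 3 knockout libraries, with points for libraries and black lines for group means. Hnrnph1 and Hnrnph2 lie higher in all knockout libraries, Hnrnph3 and Hnrnpf lower, and the Grsf1 groups overlap.

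In the controls the order of the levels was Hnrnpf, Hnrnph1, Grsf1, Hnrnph3 and Hnrnph2, and in the knockout it was Hnrnph1, Hnrnpf, Grsf1, Hnrnph3 and Hnrnph2. The ranges of neighbours in the order did not overlap in either group. The nearest pair was Hnrnph3 and Hnrnph2 in the knockout, at 16.2 to 20.1 and 13.1 to 15.1 FPKM. The exchange of the first places depends on the length by which reads are divided. The deposited length of Hnrnph1 is 5842 bases, the sum of exons over its 18 GENCODE transcripts, and is 2.41 times its longest coding transcript of 2427 bases. For Hnrnpf the lengths are 3047 and 2401 bases. Divided by the longest coding transcript, a choice made after seeing the data, the level of Hnrnph1 was 147.4, 162.4 and 150.9 in the controls, above the 121.1, 115.3 and 134.7 of Hnrnpf. On that scale Hnrnph1 was the most abundant member in both groups. Its changes between groups were the same, since the same length divides its reads in all libraries. That scale treats every read of a gene as coming from its longest coding transcript. Which transcripts the reads came from, and whether this differed between groups, was not tested.

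The direction of Hnrnph3 and Hnrnpf and the call of Grsf1 depended on how libraries were scaled, while Hnrnph1 and Hnrnph2 were higher under each scaling tried. Under the 4 other scalings the log2 fold change of Hnrnph1 ranged from 1.17 (median-of-ratios factors) to 2.62 (quantile normalization), and that of Hnrnph2 from 1.30 to 2.47, called higher by limma each time. With the FPKM of each library brought to a sum of 1000000, Hnrnph3 was called higher at 0.73, Hnrnpf at 0.46 and Grsf1 at 1.25. That scaling moved the median over genes up by 1.12, quantile normalization raised it by 0.94 and reads per 1000000 and kilobase by 0.83, while median-of-ratios factors moved it by 0.04 and left the calls of the 5 members as deposited. Relative to the median of all genes, Hnrnph1 lay between 1.54 and 2.09 and Hnrnph2 between 1.51 and 1.77 over these 5 scalings. In the same terms Hnrnph3 lay between -0.025 and 0.04 and Grsf1 between 0.48 and 0.88. Hnrnpf lay between -0.315 and -0.23 except under quantile normalization, at 0.32.

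**Figure D2:**
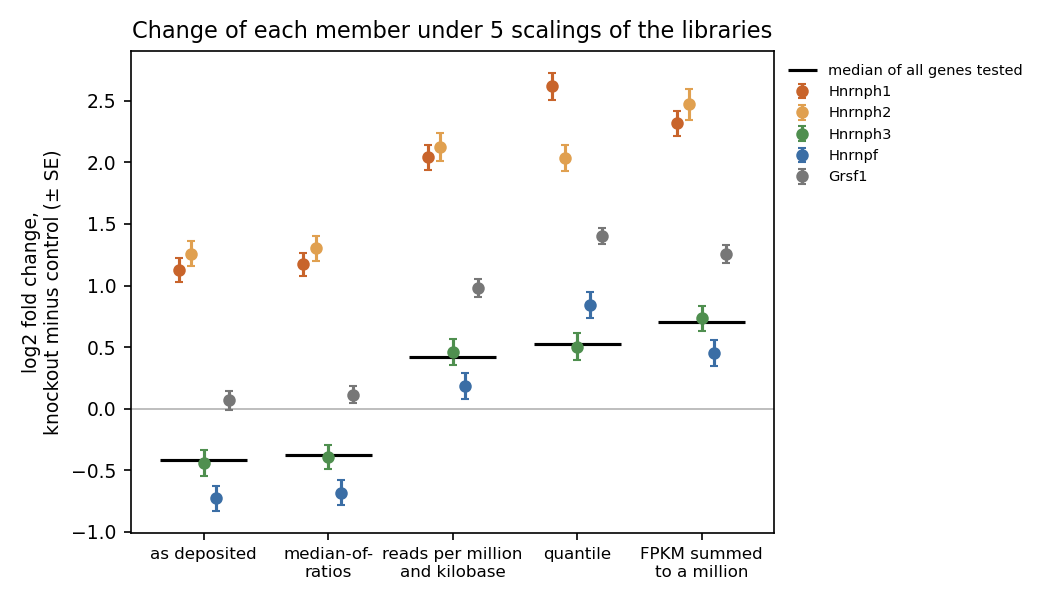
Log2 fold change of each member (points, with SE as bars) under the deposited scaling and 4 others, with the median of all genes tested as a black line. Hnrnph1 and Hnrnph2 stay above 1 in all, Hnrnph3 follows the median, and Hnrnpf and Hnrnph3 change sign between scalings.

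Ratios of FPKM within a library do not depend on a factor common to its genes, and they showed a change in the make-up of the family. Hnrnph1 took 26.7, 29.3 and 25.7% of the summed FPKM of the 5 members in control libraries and 47.9, 53.6 and 50.4% in the knockout. Hnrnpf took 41.6, 39.5 and 43.4% in control libraries and 24.0, 19.2 and 20.6% in the knockout. The share of Hnrnph1 thus went from 27.2 ± 1.91% to 50.6 ± 2.84% (SD, n = 3 each) and that of Hnrnpf from 41.5 ± 1.96% to 21.3 ± 2.44%. Hnrnph2 went from 2.40 ± 0.138% to 5.16 ± 0.572% and Hnrnph3 from 10.3 ± 0.133% to 6.43 ± 0.448%. Grsf1 moved least against its own level, from 18.5 ± 0.471% to 16.5 ± 0.777%. None of the 5 shares overlapped between groups, beside 88.0% of all genes tested whose FPKM did not overlap. The shares of a library add up to its whole, so a rise in any share lowers the others. They are not 5 separate changes: the share of Grsf1 fell while its FPKM overlapped between groups. The shares also depend on the length: per longest coding transcript, Hnrnph1 took 41.5 ± 2.34% in control libraries and 66.4 ± 2.50% in the knockout, and Hnrnpf 33.4 ± 2.01% and 14.75 ± 1.95%. The exact two-sided permutation test gave p = 0.1 for each, also after Benjamini-Hochberg adjustment over the 5 members, which is the smallest value that 3 against 3 allow.

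**Figure D3:**
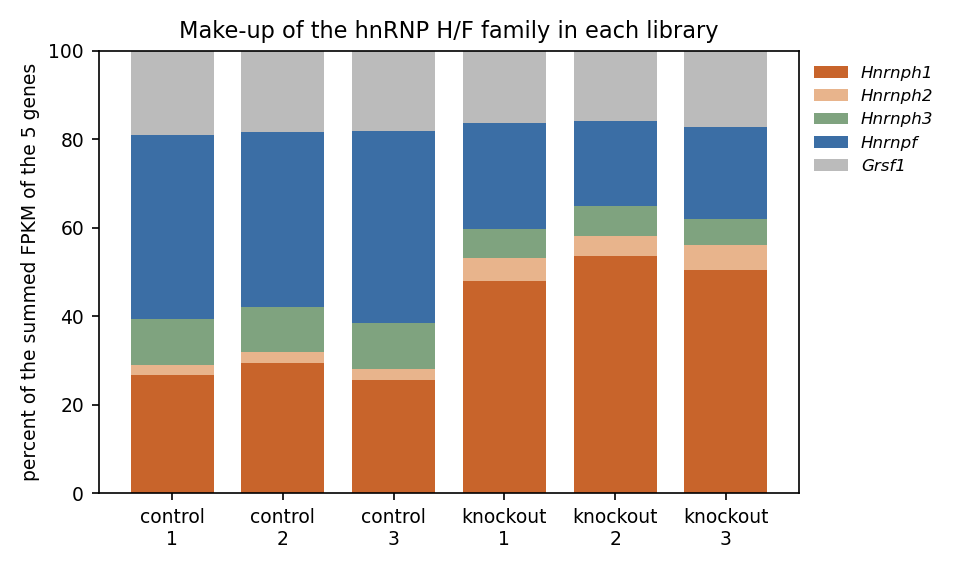
Percent of the summed FPKM of the 5 members taken by each (stacked bars from 0 to 100%) in each library. Hnrnph1 fills 25.7 to 29.3% of the control bars and 47.9 to 53.6% of the knockout bars, and Hnrnpf shrinks from 39.5 to 43.4% to 19.2 to 24.0%.

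The summed level of the family changed less than its make-up in the deposited values. The 5 members summed to 229.6, 229.9 and 244.3 FPKM in control libraries and to 268.9, 290.9 and 269.3 FPKM in the knockout, a fold of 1.18 (exact permutation p = 0.1, the smallest possible). As a part of all reads the family went from 667.2 ± 51.5 to 1750.7 ± 74.7 reads per 1000000 (SD, n = 3 each), a fold of 2.62.

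Pairs of members were compared by their ratio in each library, 10 pairs in all. The ratio of Hnrnph1 to Hnrnpf was 0.641, 0.742 and 0.590 in control libraries and 1.998, 2.79 and 2.44 in the knockout, a change of 3.64-fold. The ratio of Hnrnph2 to Hnrnpf changed by 4.18-fold, from 0.0554, 0.0648 and 0.0541 to 0.224, 0.235 and 0.271. Against Hnrnph3, Hnrnph1 rose 2.99-fold and Hnrnph2 rose 3.44-fold, and against Grsf1 they rose 2.09-fold and 2.40-fold. Hnrnpf against Grsf1 went from 2.18, 2.15 and 2.39 to 1.46, 1.22 and 1.19, and Hnrnph3 against Grsf1 from 0.546, 0.553 and 0.573 to 0.389, 0.437 and 0.347. Hnrnph3 against Hnrnpf changed by 1.22-fold. Each of these 9 pairs had groups that did not overlap, with an exact permutation p = 0.1 and an adjusted p of 0.111. That exact p is the smallest value that 3 against 3 libraries allow. The pairs share members, so they are not 9 separate changes. Single genes also separated often, as 88.0% of all genes tested had groups that did not overlap in FPKM. How often pairs of other genes separate was not tested. The pair of Hnrnph1 and Hnrnph2 alone overlapped, with a log2 difference of -0.20 between groups, an exact permutation p = 0.4 and an adjusted p of 0.4, which does not show that the members changed alike.

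Ranks of FPKM within a library do not depend on such a factor either. Hnrnph1 was higher than 89.96, 92.2 and 91.2% of the genes tested in control libraries and than 99.3, 99.5 and 99.4% in the knockout. Hnrnph2 moved furthest, from 44.8, 48.04 and 47.4% to 81.1, 78.3 and 81.5%, but it started lowest and so had the most room to rise. Grsf1 went from a mean of 87.1 to 96.3%, Hnrnph3 from 78.7 to 84.9% and Hnrnpf from 94.4 to 97.6%. Every member thus stood higher among the genes tested in the knockout. Those genes were chosen by their mean over all libraries, and they include the spermatid markers, which were nearly lost in the knockout. A member can rise in this ranking when such genes fall below it, even if its own level is not higher. How far a gene of steady level would rise was not tested. Among 35 hnRNP genes in the table, ordered by FPKM, Hnrnph1 was in place 8, 8 and 9 in control libraries and in place 1 in all 3 knockout libraries. Hnrnpf was in place 2 in each control and in places 8, 10 and 10 in the knockout. Hnrnph2 was in place 30 in each control and in places 25, 29 and 25 in the knockout, Hnrnph3 in places 20, 20 and 19 and then 22, 22 and 23, and Grsf1 in places 11, 12 and 13 and then 18, 15 and 15. These places hold for the deposited lengths, which set Hnrnph1 lower than its longest coding transcript would, and were not computed with other lengths.

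The other hnRNP genes give the setting. They package nascent transcripts and act on splicing, export and stability. Of 30 on the list 29 were tested, and 17 were called higher and 9 lower by limma, with a median log2 fold change of 0.49 beside -0.41 over all genes. When each library was rescaled to a sum of 1000000 FPKM, 25 were higher and 1 lower, beside 54.2% of all genes higher and 36.2% lower under that scaling. The largest rises were in Raly, a relative of Hnrnpc, at 17.7 ± 1.19 and 66.2 ± 1.39 FPKM, and in Hnrnpdl, a relative of Hnrnpd, with 59.4 ± 0.394 FPKM in the knockout and a log2 fold change of 1.79. Both stayed called higher under all 4 other scalings. The largest falls were in Pcbp3, which encodes a binder of cytosine runs, from 151.0 ± 19.75 to 13.1 ± 1.91 FPKM, and in Ptbp2, a splicing repressor of neurons and germ cells. Pcbp3 was called lower under the 4 other scalings too, while its relatives Pcbp1, Pcbp2 and Pcbp4, lower as deposited at log2 fold changes of -0.45, -0.82 and -0.79, had 0.73, 0.36 and 0.30 with libraries rescaled to 1000000 FPKM, where Pcbp4 was not called.

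The pyrimidine tract binding proteins, a 3-gene group like the H genes, also split in the deposited values. Ptbp2 had 29.9, 27.5 and 26.1 FPKM in control libraries against 11.8, 13.3 and 12.6 FPKM in the knockout, a log2 fold change of -1.12 ± 0.0941 (SE) with a limma adjusted p of 1.0e-05. Ptbp1, its widely expressed relative, had 28.6, 29.3 and 29.4 FPKM and then 46.8, 44.1 and 49.6 FPKM, and Ptbp3 rose with a log2 fold change of 0.79. With libraries rescaled to 1000000 FPKM Ptbp2 was not called, at 0.04, while it was called lower under the 3 other scalings, at -1.07 to -0.22. With that rescaling Ptbp1 and Ptbp3 were higher, at 1.87 and 1.98. The X-linked Rbmx and its autosomal copies Rbmxl1 and Rbmxl2, of which Rbmxl2 is known for its expression in germ cells, were named after their values were seen. Rbmx rose from 1.98 ± 0.280 to 5.08 ± 0.326 FPKM and Rbmxl1 from 12.4 ± 1.300 to 21.5 ± 2.02 FPKM. Rbmxl2 went from 78.6 ± 2.12 to 45.1 ± 1.67 FPKM as deposited, and was called higher, at 0.39, with a sum of 1000000 FPKM in each library.

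**Figure D4:**
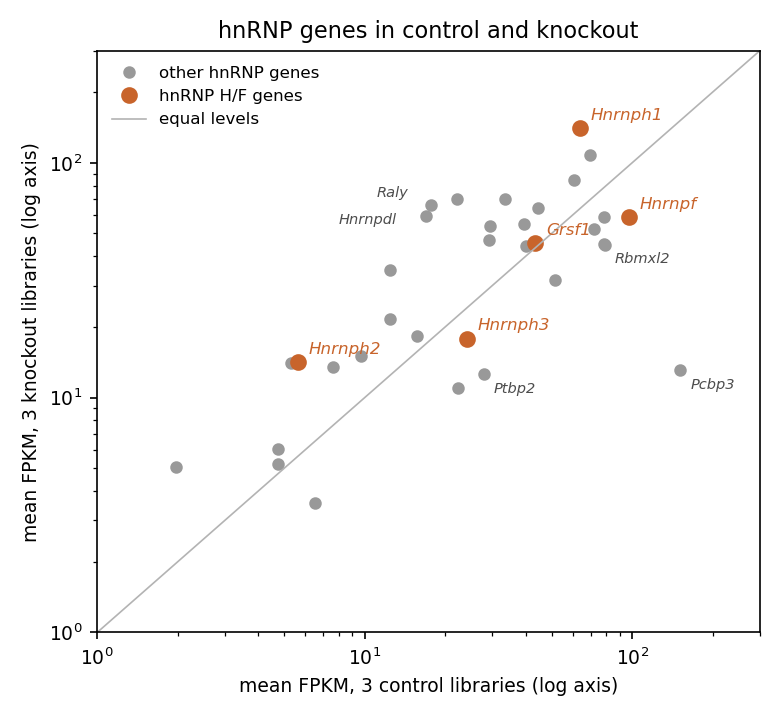
Mean FPKM in the 3 control libraries against the mean in the 3 knockout libraries (log axes) for the 5 members and the 29 other hnRNP genes tested, with a line of equal levels. Hnrnph1 is the highest point of the knockout axis at 140.1 FPKM, Hnrnpf lies under the line and Grsf1 close to it.

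A second list held splicing regulators described together with hnRNP H and the transportins that carry hnRNPs into the nucleus. Of 14 genes 12 were tested, and 8 were called higher and 1 lower, with a median log2 fold change of 0.67. Of all genes 36.2% were higher and 50.4% lower. With libraries rescaled to 1000000 FPKM, 11 of the list were higher and 0 lower, beside 54.2% and 36.2% of all genes. By limma voom it stood at 11 and 1, beside 50.4% and 38.8%. Hnrnpa1, a splicing repressor, rose from 22.1 ± 2.57 to 70.2 ± 4.99 FPKM, and Celf1, a regulator of splicing and mRNA decay, from 10.2 ± 1.25 to 30.2 ± 2.01 FPKM. The gene that was lower as deposited was Ptbp2, which is also on the list of other hnRNP genes, so the counts of these lists are not independent. Neither transportin gene was called, with log2 fold changes of 0.01 for Tnpo1 and -0.02 for Tnpo2. Of 13 genes for proteins that bind or unwind guanine-rich RNA, 10 were called higher and 2 lower, with a median of 0.74. Ncl, which encodes nucleolin, rose from 15.7 ± 3.94 to 89.5 ± 3.42 FPKM and Fmr1, which encodes a translational repressor, from 6.37 ± 1.48 to 33.0 ± 2.61 FPKM. The helicase gene Ddx5 and Ewsr1 were lower as deposited, at log2 fold changes of -0.79 and -0.55, and higher with libraries rescaled to 1000000 FPKM, at 0.40 and 0.64, where the list stood at 13 higher and 0 lower by limma. By limma voom on the reads it also stood at 13 and 0, beside 54.2% of all genes higher under the rescaling and 50.4% by voom.

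Beside Grsf1, the list of genes for mitochondrial RNA granules and RNA turnover held 20 genes, of which 19 were tested, 12 were called higher and 5 lower, with a median log2 fold change of 0.56. Hsd17b10, a subunit of mitochondrial RNase P, rose from 2.59 ± 0.710 to 9.82 ± 0.721 FPKM, and Rpusd4, a pseudouridine synthase, from 3.25 ± 0.139 to 7.96 ± 0.0304 FPKM. Tfam, which packages mitochondrial DNA and starts its transcription, fell from 35.9 ± 3.53 to 8.60 ± 0.3003 FPKM, and was called lower under the 4 other scalings too. Fastkd2, a granule protein, fell from 12.2 ± 1.76 to 5.05 ± 0.661 FPKM, and was called lower under 3 of the 4 other scalings, at -1.15 to -0.33, but not with libraries rescaled to 1000000 FPKM, at -0.08. With that scaling the list had 15 genes higher and 1 lower, beside 54.2% and 36.2% of all genes.

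Among the 13 protein genes of the mitochondrial genome, whose transcripts Grsf1 binds, 8 were called higher and 0 lower by limma, with 9 and 0 at an unadjusted p under 0.05 and 12 and 0 by limma voom, by which 50.4% of all genes were higher against 36.2% as deposited. Their median log2 fold change was 0.71. Among those called, the largest rises were in mt-Co3, from 45.1 ± 6.96 to 105.8 ± 38.4 FPKM, and mt-Cytb, from 2665.5 ± 448.6 to 5284.6 ± 530.4 FPKM. Knockout replicate 3 stood well above the 87.2 and 80.2 FPKM of mt-Co3 in the other knockout libraries. The log2 fold change of mt-Atp8 was larger, at 2.02, but was not called (limma adjusted p of 0.058). Its knockout libraries had 2.27, 2.67 and 30.8 FPKM. Mt-Nd6 lies on the light strand, whose transcripts are rich in guanine, and was named for that after its value was seen. It had 1073.0, 1234.0 and 905.4 FPKM in control libraries against 1490.4, 1792.6 and 1772.8 FPKM in the knockout, a log2 fold change of 0.66 ± 0.147 (SE) with a limma adjusted p of 0.0031.

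The genes around each member were compared next, taking up to 4 of the nearest that were tested within 100 kb. Around Hnrnph2 all 3 tested neighbours rose: Gla, which encodes a lysosomal galactosidase and lies 53 bases away on the other strand, Rpl36a, a ribosomal protein gene, and Timm8a1, a mitochondrial import gene. Rpl36a had the largest change of the 3, from 3.997 to 33.2 FPKM, against 0.828 to 2.93 FPKM for Gla and 1.12 to 5.51 FPKM for Timm8a1. Of 733 X-linked genes tested, 59.9% were called higher and their median log2 fold change was 1.11, which is close to the 1.26 of Hnrnph2. On chromosome 11, where Hnrnph1 lies, 39.2% of 1263 genes were called higher and the median was -0.13. The neighbours of Hnrnph1 were mixed, with Maml1 higher at 1.47, Cby3, a testis gene, lower at -5.30, and Rufy1 and Canx not called at -0.05 and 0.11. Around Hnrnph3, Dna2 and Slc25a16 rose, and Pbld2, which lies 97 bases from Hnrnph3, was not called at -0.01. Around Grsf1, Mob1b and Dck rose and Rufy3 was called lower, while the pseudogene Gm15682 was not called. Around Hnrnpf, Zfp637 rose, and Zfp239, the pseudogene Gm4875 and the overlapping 4933440N22Rik were called lower. With libraries rescaled to 1000000 FPKM, Rufy1, Canx, Pbld2 and Gm15682 were called higher, and Rufy3 and Zfp239 were not called.

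**Figure D5:**
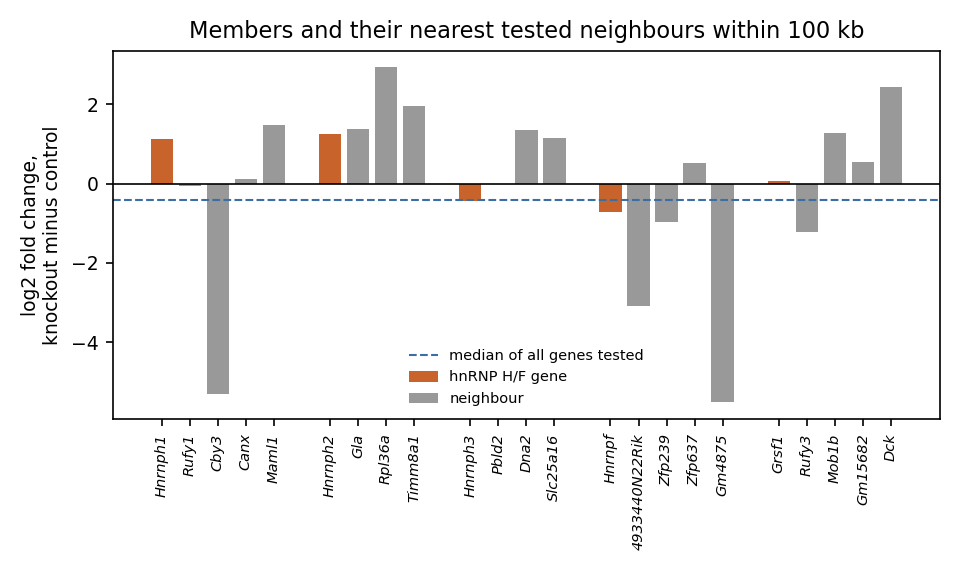
Log2 fold change of each member (orange bars) and of its nearest tested neighbours within 100 kb (grey bars), with the median of all genes tested as a dashed line. All 3 neighbours of Hnrnph2 are above 0, while those of Hnrnph1, Hnrnpf and Grsf1 include bars on both sides of 0. Around Hnrnph3, Dna2 and Slc25a16 are above 0 and Pbld2 lies just under it, at -0.015.

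Genes on the opposite strand overlap 2 members, and the sources used here do not say whether reads were counted by strand. The 4933440N22Rik locus overlaps Hnrnpf on the other strand and covers 13.5% of its exon bases. It fell from 14.2 to 1.23 FPKM, in the same direction as Hnrnpf as deposited, and with libraries rescaled to 1000000 FPKM it stood at -2.26 where Hnrnpf was at 0.46. Gm43863, also on that strand, covers 396 of the 3047 exon bases of Hnrnpf, with 0.216 FPKM in control libraries against 0.942 FPKM in the knockout. The span of Rufy2 covers 49.5% of the exon bases of Hnrnph3, and Rufy2 had 0.910 FPKM in control libraries against 0.955 FPKM in the knockout. What reads of these loci add to the levels of Hnrnpf and Hnrnph3 was not tested.

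The promoters of the 2 members that rose are given as the 250 bases before the deposited gene start, from the RefSeq table of GRCm38.p6, 5′ to 3′ on the gene's strand. Capitals mark matches on either strand to CCAAT, to the GC box GGGCGG, to the E-box CACGTG, to the cAMP response motif TGACGT or to the TATA motif TATAAA.
Hnrnph1 (chr11:50376740-50376989, plus strand): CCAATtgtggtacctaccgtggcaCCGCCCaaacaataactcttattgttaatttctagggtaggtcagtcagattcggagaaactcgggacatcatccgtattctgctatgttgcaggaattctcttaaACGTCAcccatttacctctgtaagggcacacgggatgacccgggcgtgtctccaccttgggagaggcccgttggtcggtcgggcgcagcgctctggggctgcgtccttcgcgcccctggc
Hnrnph2 (chrX:134600929-134601178, plus strand): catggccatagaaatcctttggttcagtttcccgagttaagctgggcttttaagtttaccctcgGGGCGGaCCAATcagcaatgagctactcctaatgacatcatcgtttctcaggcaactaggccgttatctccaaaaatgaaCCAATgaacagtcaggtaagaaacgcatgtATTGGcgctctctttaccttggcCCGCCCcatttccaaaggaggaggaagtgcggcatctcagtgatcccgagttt
Hnrnph1 held 1 match to CCAAT, 1 to GGGCGG and 1 to TGACGT, and Hnrnph2 held 3 matches to CCAAT and 2 to GGGCGG. Of 32817 promoter windows of that length, 33.8% held CCAAT, 32.7% GGGCGG, 6.02% CACGTG, 6.46% TGACGT and 12.4% TATAAA. The share of guanine and cytosine was 55.6% for Hnrnph1 and 48.4% for Hnrnph2, beside a median of 52.4% over all windows. RefSeq lists 4 further starts of Hnrnph1, between 688 and 1301 bases downstream of this one, and the gene-level values do not tell which start was used. The 4 matches to GGGCGG in the Grsf1 window at its gene start, and the 0 matches to any of these letters in the first Hnrnpf window, are descriptions of these windows only.

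Genes whose pattern was most like that of a member were found by the root mean square difference in log2(FPKM + 0.5) over the 6 libraries, after each gene's mean was removed, among 11954 other protein-coding genes, leaving out those named only by a clone or a model number. Among the nearest to Hnrnph1 were Arhgap12 at 0.0214, Apool at 0.0269, Dlg1 at 0.0392 and Dopey1 at 0.0408. Arhgap12 had 4.93, 5.65 and 5.29 FPKM in control libraries against 11.3, 13.3 and 11.6 FPKM in the knockout, with replicate 2 the highest of each group as in Hnrnph1. For Hnrnph2 they were Cabin1 and Zfp825, for Hnrnph3 Tcp11l2 and Ncoa5, for Hnrnpf Sympk and Dlgap4, and for Grsf1 Psmd10 and Nap1l4, at 0.0240 to 0.0417. Such likeness was not particular to the genes named: of the 11954, 183 lay within 0.1 of Hnrnph1, 189 of Hnrnph2, 102 of Hnrnph3, 79 of Hnrnpf and 345 of Grsf1.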

How the data were processed

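Messenger RNA was sequenced in 3 control and 3 knockout libraries of STRA8+ cells from mouse testis, grouped and numbered by their titles. The submitters' processing notes name HISAT2 2.0.5 and mm10. How reads were counted, by strand or over repeats, is not given in the sources used here. The authors deposited FPKM values per gene. FPKM times gene length gave whole multiples of 1 read for 100% of nonzero values, within 0.01 read, so the reads were recovered.

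Members and gene lists were chosen with earlier results of these data known. Genes whose mean reached 1 FPKM were tested in limma 3.58.1 under R 4.3.3, as log2(FPKM + 0.5) of knockout less control, with a mean-variance trend and Benjamini-Hochberg adjustment over all genes. From each list the text names the 2 largest rises and 2 largest falls past the threshold with groups that do not overlap. Coding sequences were aligned with MAFFT 7.526. The labels do not say whether libraries came from separate animals, so p-values reflect only how these libraries vary, which may be technical variation. The fit was tested on simulated data in which few genes changed, as many up as down, and each library was scaled by its own total. That test does not cover the effect of scaling on these libraries. Alternatives were other pseudocounts, filters, scalings, weights, a replicate block, limma voom on the reads and leaving out each library. A gene among those most like Hnrnph1 is not reported here.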

Additional observations from a re-analysis of the deposited data

How the results depend on the processing

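Hnrnph1 and Hnrnph2 kept their direction and their call under all 19 alternatives, and leaving out any library changed no call of a member. With libraries rescaled to 1000000 FPKM, quantile normalization, reads per 1000000 and kilobase, and limma voom on the reads, in that order, Hnrnph3 gave log2 fold changes of 0.734, 0.505, 0.461 and 0.469, Hnrnpf 0.455, 0.843, 0.187 and 0.186, and Grsf1 1.253, 1.403, 0.979 and 0.987; those of Hnrnpf under the last 2 were not called. The first 2 of these scalings left 1 and 3 other hnRNP genes lower, and 1 and 3 genes of mitochondrial RNA, 0 and 0 of the guanine-rich RNA binders; the first left 0 of the regulators tied to hnRNP H. A filter at 5 FPKM, with fewer genes tested, gave 3227 genes higher and 5320 lower, against 6075 and 8462. Counts higher and lower were 9109 and 6084 with libraries rescaled to 1000000 FPKM, 8745 and 6187 with quantile normalization, 8491 and 6527 with reads per 1000000 and kilobase, and 8470 and 6516 with voom. The replicate block gave Hnrnph1 1.126, Hnrnph2 1.259, Hnrnph3 -0.438, Hnrnpf -0.728 and Grsf1 0.068, with 5930 genes higher and 8364 lower. It changed no call of a member. Same-numbered libraries had deviations from their group means correlated at -0.12, -0.053 and -0.040. With 3 libraries in each group, these values cannot show whether the numbers pair the libraries. The share of Grsf1 changed by -3.57 points in reads and by -3.29 points with the longest coding transcript as length, which gave 1.41 points for Hnrnph2. Among protein-coding genes alone the percentile rose by 10.18 for Hnrnph1, 4.0 for Hnrnpf and 11.19 for Grsf1. Depth limits Hnrnph2 most, at 232 to 338 reads in the controls.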
